A study of Mus musculus with 4 samples.

Results

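The 38 genes examined serve ribosome biogenesis and the growth metabolism that MYC is known to drive. They were read in adult mouse heart muscle cells after 2 days of doxycycline or PBS. The mice carried transgenes of the reprogramming factors. The genes were taken by name: 34 act in the nucleolus, where ribosomal RNA is made, modified and built into subunits, and 4 serve polyamine and nucleotide synthesis. All 38 were found among the 20886 genes that the array names, each through a RefSeq accession of its probe. The values of these arrays were not used to choose them, although earlier results of the same arrays were known when the list was drawn up.

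RNA polymerase I copies the ribosomal DNA repeats into a long precursor, small nucleolar ribonucleoproteins (snoRNPs) mark bases of it for modification, and large assemblies cut and fold it into the small and large subunits. MYC, which is among the transgenic factors, is known to bind many of these genes at the E-box CACGTG. It is also a general driver of ribosome production. Adult heart muscle cells divide rarely and enlarge instead, and a larger nucleolus is a classical sign of heart muscle growth.

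RNA came from heart muscle cells of 10-week-old male mice that, per the labels, descend from a cross of a CRE line under the αMHC promoter, active in heart muscle, with a line that holds the 4 Yamanaka factors (OSKM: Pou5f1, Sox2, Klf4 and Myc) behind a tetO element. Control animals of this genotype received PBS and treated animals doxycycline by intraperitoneal injection, in both cases for 2 days, and the cells were then isolated. Each group has 2 samples, on 4 one-colour Agilent arrays of 1 slide. All 4 samples share the transgenes and no sample had doxycycline without them, so drug and factors cannot be told apart. The labels name neither a strain nor how doxycycline acts on the tetO element in these animals. Nothing says that the 2 samples of a group came from separate animals, so the p-values measure the spread between samples, which may be technical. The limma fit also draws each gene's spread toward that of all genes. Its errors and p-values thus do not rest on that gene's samples alone.

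The arrays were alike in coverage, with 50.6% to 51.8% of spots well above background, but control array 1 was dimmer and noisier. The median coefficient of variation between repeated spots was 10.99% on it and 4.02% to 4.81% on the other arrays. Control arrays held the first and doxycycline arrays the last positions of the slide, so position and treatment cannot be told apart. All 10 heart muscle markers examined, such as the myosin gene Myh6 and the troponin gene Tnnt2, were well above background on every array. Values called levels below are log2 of the processed signal minus the 75th percentile of the array, differences are doxycycline minus control on that log2 scale, and errors are the standard error of the limma fit (SE, n = 2 arrays per group).

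Myc itself was far higher on both doxycycline arrays, and unequally so. In control its level was -2.34 (array 1) and -3.21 (array 2), and after doxycycline 1.77 (array 1) and -0.49 (array 2). Pairs of values below keep this order of arrays. The groups did not overlap, and doxycycline array 1 stood 2.25 log2 units (4.76-fold) above doxycycline array 2. The difference between the groups was 3.41 ± 0.77 (SE) and did not pass the limma test over all genes (adjusted p = 0.331, and 6.98e-06 to 0.68 over 13 other settings). It was 1.97 with normexp background correction, 2.29 without doxycycline array 1 and 4.54 without doxycycline array 2. Whether the probe reads the introduced copy of Myc is not known.

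Of the 38 genes, 37 were bright enough to be tested, and most stood somewhat higher after doxycycline without any passing the test. The difference was positive for 29 and negative for 8, where 45.2% of all 12542 genes tested had a positive one. Its median was 0.36, beside -0.06 for all genes. Both doxycycline arrays lay above both control arrays for 16 of the 37, against 14.5% of all genes, and below both for 4, against 20.8%. With limma and Benjamini-Hochberg adjustment over all genes, 0 of the 37 were called, as were 0.0% of all genes, and at an unadjusted p under 0.05 there were 2 members higher and 0 lower, where 3.17% of all genes were higher and 3.89% lower. Those 2 were Rrp12 (limma unadjusted p = 0.0106) and Ddx21 (limma unadjusted p = 0.0457). The median stayed positive in each of the 13 other settings, from 0.13 to 0.71. Among these, limma's trend and robust options and the replicate block cannot change a difference. Median scaling, which gave 0.71, moved all genes alike, to a median of 0.29. Without control array 1 the members' median was 0.29, beside -0.11 for all genes, and the groups stood apart upward for 19 members, against 28.4% of all genes. Leaving out doxycycline array 1 gave the lowest median, 0.13, beside -0.06 for all genes, and left 16 members above both controls (21.6% of all genes) and 9 below (29.9%). Without doxycycline array 2 the median was 0.59.

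**Figure D1:**
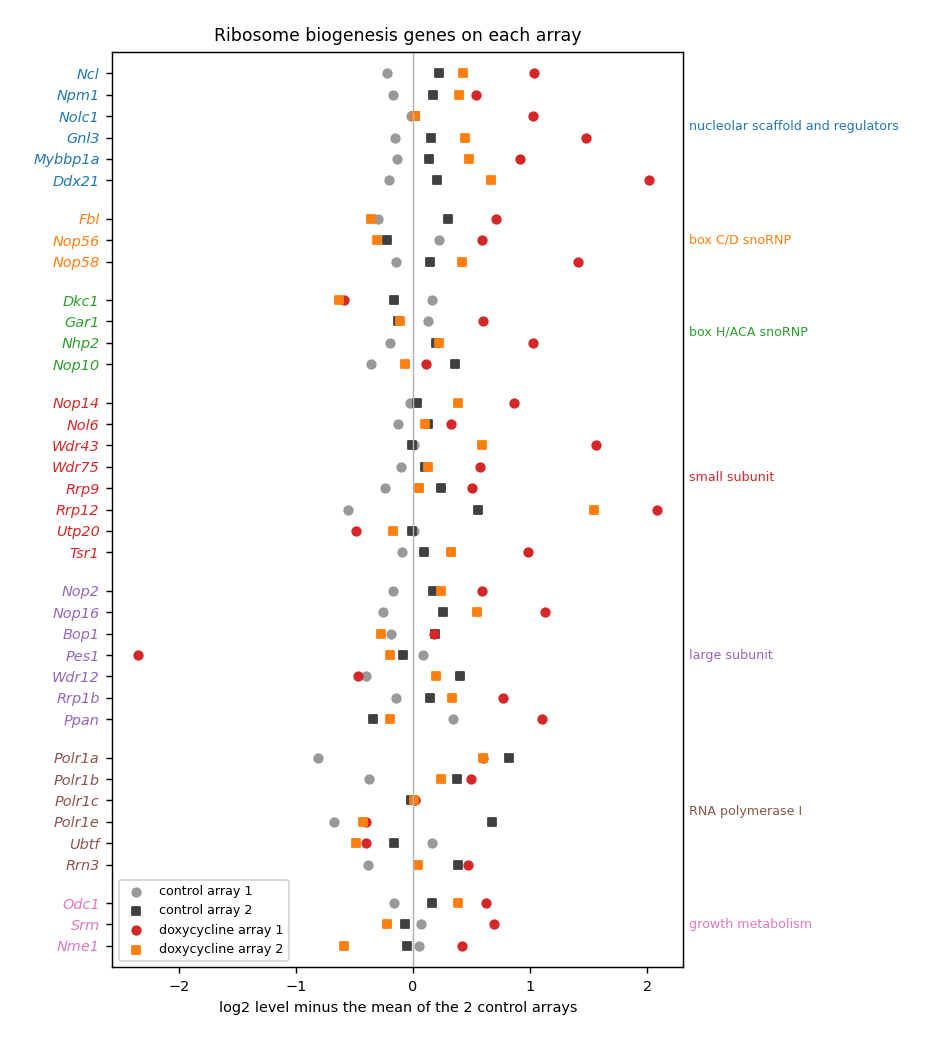
Level of each gene on each array minus the mean of the 2 control arrays (log2 scale, horizontal axis), with genes grouped by role. Grey symbols are control arrays and coloured symbols doxycycline arrays. Doxycycline array 1 lies to the right of doxycycline array 2 for 33 of 37 genes, and Pes1 stands alone far to the left on doxycycline array 1.

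The doxycycline array with more Myc signal also read higher for most of these transcripts. It was the brightest array as well, with a 75th percentile of processed signal of 248 beside 193 on doxycycline array 2. Array brightness and Myc signal thus cannot be told apart here. Doxycycline array 1 read above doxycycline array 2 for 33 of the 37 genes, with a median of 0.45 log2 units, while over all genes it did so for 49.7%, with a median of 0.00. A gap of at least 0.5 was seen for 16 of the members and for 13.3% of all genes. Doxycycline array 1 exceeded both control arrays for 28 members (27.3% of all genes) and doxycycline array 2 for 16 (21.6% of all genes). It lay below both control arrays for 5 (35.6% of all genes), as doxycycline array 2 did for 9 (29.9% of all genes). Against the mean of the 2 control arrays the members' median was 0.59 on doxycycline array 1 and 0.13 on doxycycline array 2. The control arrays did not follow the same order, since Myc was 0.87 higher on control array 1, where 26 of the 37 members were lower than on control array 2 (53.4% of all genes were). The processed signals of Myc in control were 22.2 and 18.5, and the 75th percentiles 112 and 171, so that gap came partly from scaling. These are comparisons of single arrays, and 4 arrays are too few for a correlation. The count of 33 ranged from 28 of 37 with quantile normalization (46.1% of all genes) to 34 of 37 with median scaling (67.8% of all genes).

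The excess on doxycycline array 1 was shared with other genes of the ribosome. Among the 82 cytosolic ribosomal protein genes tested, doxycycline array 1 was above doxycycline array 2 for 90.2%, by a smaller median of 0.25. Yet their median difference between the groups was -0.04, beside -0.06 for all genes. It became 0.14 with normexp correction (-0.1 for all genes) and -0.08 with quantile normalization (-0.04 for all genes). When arrays were scaled to their median it was 0.31, where that of all genes was 0.29. The 77 mitochondrial ribosomal protein genes gave 71.4% and a median of 0.13, and 48.1% with quantile normalization. In control, array 1 minus array 2 was negative for all 77, with a median of -1.05. No test of the difference between these lists was made.

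**Figure D2:**
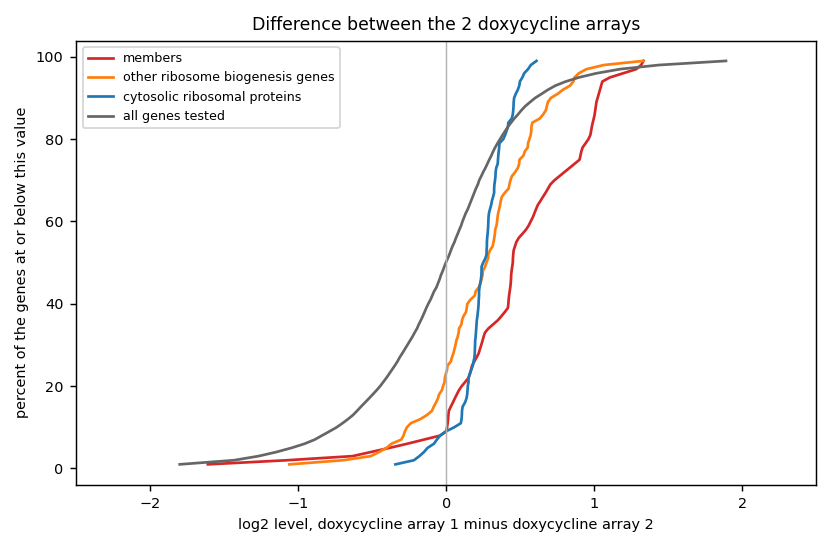
Cumulative percent of genes (vertical axis) by the log2 level on doxycycline array 1 minus that on doxycycline array 2 (horizontal axis), for the 37 members tested, 113 other ribosome biogenesis genes, 82 cytosolic ribosomal protein genes and all 12542 genes. The curve of the members lies to the right of that of all genes over most of its length, with medians of 0.45 and 0.00.

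The 6 scaffold proteins and regulators of the nucleolus were the group that lay most evenly above control, with positive differences for all 6, a median of 0.71 and groups that stood apart upward for 5 (14.5% of all genes). All 6 stayed positive in each of the 13 other settings, not all of which can change a difference. Their median was 0.43 without doxycycline array 1 and 1.03 without doxycycline array 2. Ddx21, an RNA helicase that works with RNA polymerase I and on precursor RNA, had levels of -0.79 and -0.38 in control against 1.43 and 0.08 after doxycycline. The groups did not overlap, and doxycycline array 1 stood well apart from the other 3 arrays. Its difference was 1.34 ± 0.55 (SE, 2.54-fold, adjusted p = 0.69, and 0.232 to 1.0 over the other settings). It was 0.67 without doxycycline array 1, and a second probe gave 0.64.

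Gnl3, or nucleostemin, a GTP-binding protein of stem and growing cells, had levels of -0.78 and -0.48 in control against 0.85 and -0.19 after doxycycline, a difference of 0.96 ± 0.49. Nucleolin, Ncl, the abundant chaperone of precursor ribosomal RNA, had levels of 3.23 and 3.68 against 4.49 and 3.88, a difference of 0.73 ± 0.44. In both genes the groups did not overlap, and without doxycycline array 1 the differences were 0.44 and 0.42. A second Ncl probe gave -0.28.

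Mybbp1a, a nucleolar regulator of transcription, differed by 0.69 ± 0.41, with levels of 2.85 and 3.13 in control against 3.90 and 3.47 after doxycycline. Nucleophosmin, Npm1, a histone and ribosome chaperone, had levels of 4.06 and 4.40 against 4.77 and 4.62 and differed by 0.46 ± 0.40. All 5 Npm1 probes were positive, from 0.36 to 0.76. The mouse genome holds copies of Npm1 and the probes' sequences were not used here, so reads from copies cannot be set apart. Nolc1, a chaperone of snoRNPs, stood out on doxycycline array 1 alone, with 1.99 against 0.95, 0.98 and 0.98 on the other arrays. A second, much dimmer Nolc1 probe did not show this, with -5.02 and -2.30 in control against -3.01 and -2.61 after doxycycline. It was well above background on 3 arrays.

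The snoRNP proteins were uneven. The box C/D particle methylates ribosomal RNA through fibrillarin, Fbl, which had levels of 1.23 and 1.82 in control against 2.23 and 1.17 after doxycycline, so that the 2 doxycycline arrays lay on either side of the controls. Nop56, a core protein of the same particle, did likewise, with 2.70 and 2.26 against 3.07 and 2.17. Their differences were 0.17 ± 0.51 and 0.14 ± 0.48. Nop58, the partner of Nop56, had levels of 0.44 and 0.73 in control against 1.99 and 1.0 after doxycycline, a difference of 0.91 ± 0.48 with groups apart, and of 0.42 without doxycycline array 1. Without doxycycline array 1 the median of the 3 genes was -0.31. On doxycycline array 1 all 3 genes of the particle read well above doxycycline array 2, by 1.06, 0.90 and 0.99.

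In the box H/ACA particle, which converts uridine to pseudouridine, the members differed in direction. Dkc1, the enzyme dyskerin, had levels of -1.95 and -2.28 in control against -2.70 and -2.75 after doxycycline. Both doxycycline arrays lay below both control arrays, with a difference of -0.61 ± 0.40. Dkc1 was dim, with processed signals of 29.0 and 35.1 against 38.2 and 28.6, so its lower levels rest on the scaling. Its difference was -0.77 to -0.26 over the 13 other settings. Nhp2, an RNA-binding protein of the particle, lay higher with 2.55 and 2.94 against 3.77 and 2.97, a difference of 0.63 ± 0.46, and its doxycycline array 2 barely passed control array 2. Without doxycycline array 1 the difference of Nhp2 was 0.22. Gar1 differed by 0.24 ± 0.44 and Nop10, the smallest protein of the particle, by 0.02 ± 0.44, both with overlapping groups.

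Among the 8 genes of small subunit assembly, 7 had a positive difference (45.2% of all genes) and the groups stood apart upward for 5 (14.5% of all genes). Rrp12 had the highest difference in the main setting and not with normexp correction, where members such as Ncl (0.85), Gnl3 (0.69) and Wdr43 (0.67) were above it. Rrp12 serves maturation and export of subunit precursors. Its levels were -3.49 and -2.38 in control against -0.85 and -1.39 after doxycycline, and its processed signals 10.0 and 32.9 against 138 and 73.3. Both doxycycline arrays lay clearly above both control arrays, and Rrp12 was well above background on the 3 arrays other than control array 1. The difference was 1.81 ± 0.52 (SE, 3.51-fold), with a limma adjusted p of 0.448 (0.101 to 1.0 over the 12 other settings in which it was tested). With normexp background correction, which draws dim probes together, it was 0.50, and with a filter on all 4 arrays it was not tested.

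Wdr43, a WD-repeat protein of the early small subunit particle, had levels of -0.59 and -0.61 in control against 0.96 and -0.01 after doxycycline. The controls were almost equal and both doxycycline arrays lay above them, by 1.07 ± 0.47 on average and by 0.59 without doxycycline array 1. A second probe gave 0.37. Tsr1, a late assembly factor that resembles a GTPase, read -1.17 and -0.99 against -0.10 and -0.76, a difference of 0.65 ± 0.43, and a second probe gave 0.93.

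Nop14, another protein of the early particle, read -0.64 and -0.58 against 0.25 and -0.23, a difference of 0.62 ± 0.41 with groups apart. Wdr75 (0.35 ± 0.41) was also apart, by a narrow margin on doxycycline array 2, with 0.53 against 0.50 on control array 2. Rrp9, which binds the U3 snoRNA (0.28 ± 0.43), and Nol6 (0.21 ± 0.40) overlapped between the groups. Utp20, a large scaffold of the particle, was lower on both doxycycline arrays, with -2.72 and -2.73 in control against -3.21 and -2.90 after doxycycline, a difference of -0.33 ± 0.40, which turned to 0.02 when arrays were scaled to their median. It was dim, with processed signals of 17.0 and 25.7 against 26.8 and 25.8, so its lower levels also rest on the scaling.

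**Figure D3:**
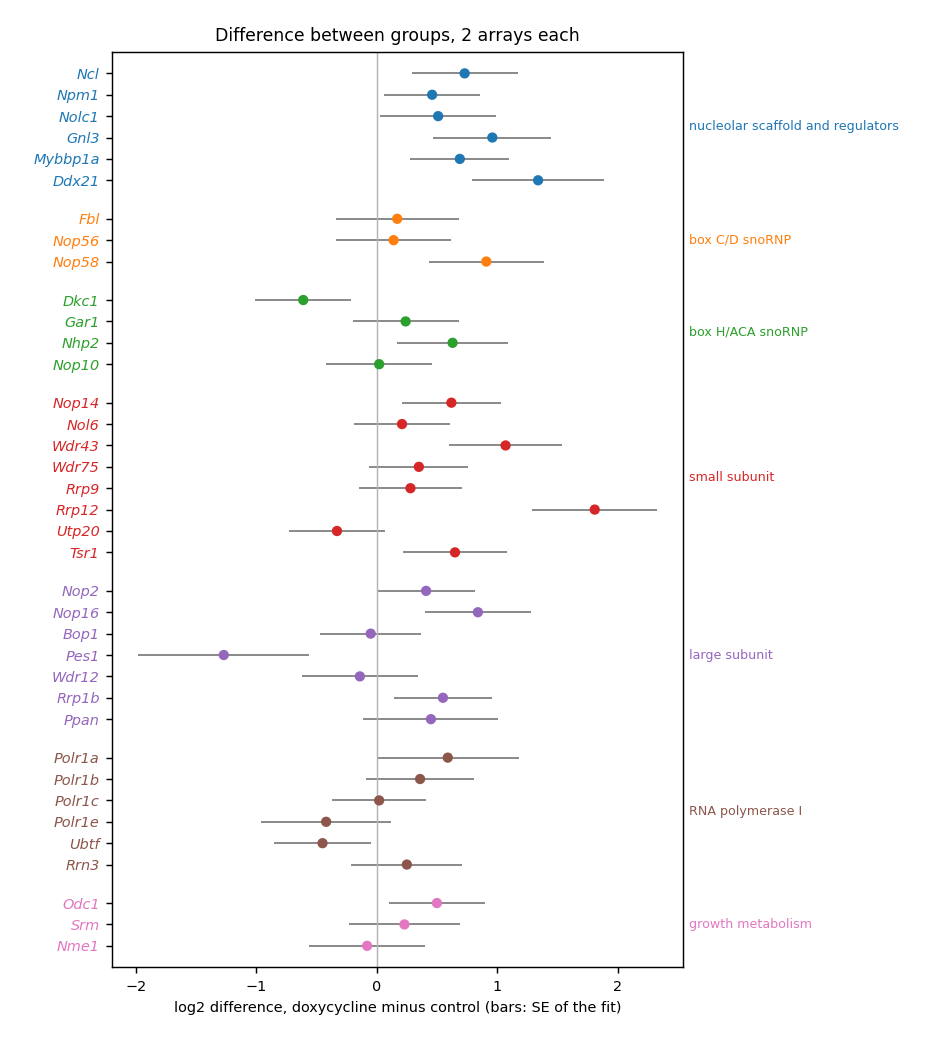
Difference between doxycycline and control for the 37 members tested (log2, horizontal axis), with bars for the SE of the fit and 2 arrays per group. Rrp12 at 1.81, Ddx21 at 1.34 and Wdr43 at 1.07 lie farthest to the right and Pes1 at -1.27 farthest to the left. None passed the test over all genes.

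Differences of the 7 genes of large subunit assembly ran from -1.27 to 0.84. The groups stood apart upward for 3 (14.5% of all genes) and downward for 1 (20.8% of all genes). Nop16 read -0.57 and -0.06 in control against 0.81 and 0.23 after doxycycline, a difference of 0.84 ± 0.44 with groups apart. Rrp1b, which links ribosome assembly to chromatin, read -2.81 and -2.52 against -1.90 and -2.33 (0.55 ± 0.41). Normexp correction took it to -0.03. Nop2, a methyltransferase of large subunit RNA, read 1.85 and 2.19 against 2.61 and 2.26 (0.41 ± 0.41). Ppan was highest on doxycycline array 1, at 2.52, beside 1.76 and 1.08 in control and 1.22 on doxycycline array 2.

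Pes1, Bop1 and Wdr12 encode the 3 proteins of the PeBoW complex, which large subunit maturation needs, and none had a positive difference. Bop1 differed by -0.05 ± 0.42 and Wdr12 by -0.14 ± 0.48, with overlapping groups and a sign that turned in 4 of the 13 other settings for each. Pes1 had levels of 0.73 and 0.56 in control against -1.70 and 0.45 after doxycycline. A single array carried its difference of -1.27 ± 0.71: without doxycycline array 1 it was -0.20. A second Pes1 probe read -3.71 and -2.71 against -1.79 and -1.65, a difference of 1.49 in the opposite direction, and was not well above background on control array 1. Its 2 probes thus gave no single direction.

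Of the 6 RNA polymerase I genes, 0 had both doxycycline arrays above both control arrays, where 14.5% of all genes did, a share that comes to less than 1 gene of 6. The largest subunit gene, Polr1a, read 0.60 and 2.23 in control against 2.01 and 2.01 after doxycycline, so that control array 1 alone stood apart. Its difference of 0.59 ± 0.59 became -0.22 without control array 1 and 1.41 without control array 2. Polr1e had a like spread between its controls, with -0.20 and 1.15 against 0.07 and 0.05 (-0.42 ± 0.54), and it became -1.09 without control array 1 and 0.26 without control array 2. The second subunit, Polr1b, was at -3.90 and -3.15 against -3.03 and -3.29 (0.36 ± 0.45) and was not well above background on control array 1.

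Polr1c, a subunit shared with RNA polymerase III, was nearly level over the arrays, with 1.12 and 1.08 in control against 1.12 and 1.11 after doxycycline. Rrn3, which carries the polymerase to the promoter, differed by 0.25 ± 0.46, and by -0.13 without control array 1. Ubtf, which binds the ribosomal DNA promoter, was lower on both doxycycline arrays, with 5.50 and 5.18 in control against 4.94 and 4.85, a difference of -0.45 ± 0.40. A second Ubtf probe differed by 0.11.

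Of the growth enzymes, Odc1, the first enzyme of polyamine synthesis and a textbook MYC target, read 1.97 and 2.30 in control against 2.76 and 2.52 after doxycycline. The groups stood apart, with a difference of 0.50 ± 0.40, and its other probes gave 1.28 and 0.20. Spermidine synthase, Srm, was high on doxycycline array 1 alone, at 1.40 beside 0.78, 0.64 and 0.49, and its 2 probes gave almost the same difference, 0.23 and 0.22. Nme1, a nucleoside diphosphate kinase, read 1.61 and 1.51 in control against 1.98 and 0.97 after doxycycline (-0.08 ± 0.48), and a second probe gave -0.74. Nme1 has a close relative, Nme2, whose share in the signal is not known. Cad, which starts pyrimidine synthesis, was well above background on 0 of 4 arrays, with signals of 2.16 to 2.49, and was not tested.

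**Figure D4:**
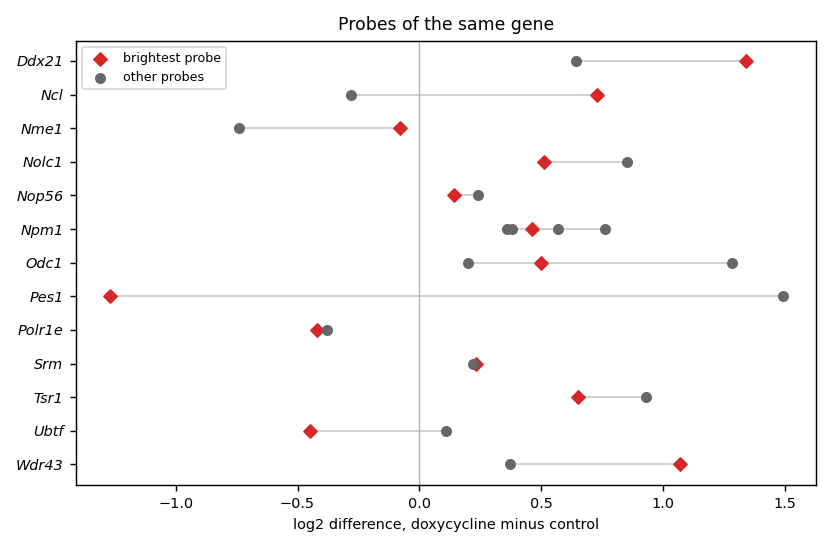
Difference between doxycycline and control (log2, horizontal axis) for each probe of the 13 members with more than 1 probe bright enough to test. The red diamond is the brightest probe, which stands for the gene, and grey circles are the others. Probes fall on both sides of 0 for Ncl, Pes1 and Ubtf.

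Several of these genes carry an E-box near their start, and the matches are shown because CACGTG is the site through which MYC is known to act. RefSeq promoter windows of assembly GRCm38.p6, 250 bases before to 50 bases after the start, were at hand for 32 of the 38 genes. CACGTG, which reads the same on both strands, was present for 8 of the 32 (25.0%), for 17.8% of 101 other ribosome biogenesis genes, for 11.6% of 9990 genes tested on the array and for 8.09% of all 27025 genes with a window. Each match is printed 5′ to 3′ on the strand of the gene with the E-box in capitals.
Wdr43, chr17:71616220-71616249, + strand: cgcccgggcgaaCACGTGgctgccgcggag
Tsr1, chr11:74898092-74898121, + strand: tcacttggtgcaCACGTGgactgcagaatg
Mybbp1a, chr11:72441347-72441376, + strand: aagtgactgtcttctgagccCACGTGtttg
Nop2, chr6:125131811-125131840, + strand: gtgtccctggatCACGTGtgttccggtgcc
Pes1, chr11:3963965-3963994, + strand: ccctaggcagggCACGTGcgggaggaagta
Utp20, chr10:88826765-88826794, - strand: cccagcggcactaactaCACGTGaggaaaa
Rrn3, upstream match, chr16:13780472-13780501, + strand: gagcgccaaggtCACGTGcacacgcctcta
Rrn3, match nearer the start, chr16:13780639-13780668, + strand: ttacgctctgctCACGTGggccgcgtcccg
Nme1, first start, chr11:93968273-93968302, - strand: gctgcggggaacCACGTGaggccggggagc
Nme1, second start, chr11:93968037-93968066, - strand: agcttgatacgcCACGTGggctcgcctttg
Counted from the transcript start, the first base of the E-box lay at 18 in Wdr43, at -60 in Nop2, and at -215 and -48 in Rrn3. The 8 genes with a match had a median difference of 0.33 and the 23 tested genes with a window but no match 0.45. Doxycycline array 1 exceeded doxycycline array 2 by a median of 0.42 and 0.45 in these sets, and for 6 of 8 and 21 of 23 genes. The difference between the sets was not tested. Ddx21, Gnl3, Ncl and Nop58, all with groups apart upward, had no match in this window.

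Many members house small nucleolar RNAs, a trait that the list was not chosen for and that was examined after values were seen. By RefSeq positions, 9 of the 38 genes (23.7%) span at least 1 snoRNA gene, among them Nop56 with 5, Nop58 with 4, and Gnl3 and Wdr43 with 3 each, compared with 1.7% of all protein-coding genes. The 9 hosts had a median difference of 0.65 and a median excess of doxycycline array 1 over doxycycline array 2 of 0.90. For the other 28 tested members the medians were 0.27 and 0.43. The groups stood apart upward for 6 hosts and 10 others, where 14.5% of all genes did. The difference between hosts and other members was not tested. The snoRNAs themselves were not examined here.

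Other genes of subunit assembly also had mostly positive differences, where 45.2% of all genes had a positive one. Of 44 other small subunit factors tested, 36 had a positive difference (median 0.17) and the groups stood apart upward for 11 and downward for 4, against 14.5% and 20.8% of all genes. Of 45 other large subunit factors, 37 were positive (median 0.32) and the groups stood apart upward for 16 and downward for 1. With limma adjusted over all genes 0 of these were called, as were 0.0% of all genes. At an unadjusted limma p under 0.05 there were 0 and 1 higher and 0 lower, where 3.17% of all genes were higher and 3.89% lower. The endonuclease gene Nob1, which makes the last cut of the small subunit RNA, differed by 0.96 ± 0.46 and Nol9, a kinase of large subunit processing, by 1.16 ± 0.48, which normexp correction took to -0.06. Utp14a differed by 1.16 ± 0.66, Ddx24 by 0.93 ± 0.46 and Ftsj3, a methyltransferase, by 0.92 ± 0.48. Nol11, a subunit of the early small subunit particle, differed by 0.72 ± 0.48. At the other end stood Ddx55 at -0.86 ± 0.42, Nop9 at -0.72 ± 0.57, Noc3l at -0.30 ± 0.59, Nol12 at -0.29 ± 0.43, Bud23 at -0.27 ± 0.41 and Emg1 at -0.21 ± 0.43. Single arrays moved both medians: without doxycycline array 1 they were 0.06 for the small and 0.00 for the large subunit list, and without control array 1 they were 0.04 and 0.14.

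Further RNA polymerase I subunits and factors, 14 in all, were evenly split, with 7 positive and 7 negative differences and a median of -0.01. The lowest were Znrd1 and Polr2h at -0.44 each and Polr2e at -0.38, all polymerase subunits, and the highest Taf1c at 0.29, Cd3eap at 0.38 and Taf1d at 0.69 ± 0.57. The 10 factors of snoRNP assembly had a median of -0.07. Shq1, which escorts dyskerin, stood at 1.28 ± 0.68 with overlapping groups, a value carried by doxycycline array 2: it was 0.30 without that array and 0.10 with normexp correction. The helicase Ruvbl1 stood at 0.23 and Naf1 at 0.04, while Ruvbl2 stood at -0.35, Tgs1 at -0.29 and Snu13 at -0.27. Median scaling took the medians of these lists to 0.33 and 0.27, beside 0.29 for all genes. Other genes of polyamine and nucleotide synthesis were positive for 18 of 22 (45.2% of all genes), with a median of 0.26. They were led by Gmps at 0.81 ± 0.54, Ctps at 0.75 ± 0.59 and Sat1 at 0.68. The groups stood apart upward for 3, near the 14.5% of all genes. The median was 0.11 without control array 1 and 0.11 without doxycycline array 1, with 13 and 14 positive. Prps2 at -0.43, Dhodh at -0.36 and Oaz2 at -0.33 were lowest. Doxycycline array 1 was above doxycycline array 2 for 35 of 44 small subunit, 39 of 45 large subunit, 5 of 10 snoRNP assembly, 7 of 14 polymerase and 17 of 22 synthesis genes.

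Markers of other cells also differed between the arrays, and in bulk RNA fewer cells of a type and less RNA per cell cannot be told apart. Fibroblast markers were lower after doxycycline for 9 of 10, with a median difference of -2.31. Without control array 1 the median was -1.39 and 6 of 10 were lower. Their signals, summed as multiples of the 75th percentile of the array, were 221 and 68.8 in control and 80.6 and 86.4 after doxycycline. Each of the 10 endothelial markers read higher on the first control array than on the other, with sums of 455 and 134 in control against 233 and 265. Macrophage markers summed to 24.2 and 8.71 against 9.55 and 8.06, smooth muscle and pericyte markers to 76.6 and 62.4 against 32.0 and 23.7, and red cell markers to 98.3 and 19.3 against 12.5 and 14.9. Of the 8 smooth muscle and pericyte markers 6 were lower (median -0.55), with Acta2 lowest at -2.47, while Myh11 (0.34) and Cnn1 (1.17) were higher. Without control array 1 the median of that list was 0.14 and 5 of 8 were higher. Of 5 neutrophil markers tested, S100a8, S100a9 and Retnlg read higher on both doxycycline arrays and highest on doxycycline array 1. They were named after their values were seen. Myc and Ddx21 also read higher on doxycycline array 1 than on doxycycline array 2, as did 49.7% of all genes. Csf3r and Camp differed by -0.33 and -0.34. The 5 markers summed to 72.3 and 38.6 against 51.3 and 54.3, and Cxcr2, a defining receptor of neutrophils, was well above background on 0 of 4 arrays. Heart muscle markers summed to 3460 and 4020 against 2460 and 3100, yet 6 of the 10 had a positive difference and 4 a negative one (median 0.05). Without control array 1 their median was -0.40 and 1 was positive. The part of these markers in the levels of the ribosome biogenesis genes was not tested.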

How the data were processed

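Spot intensity was read from Cy3 scans by the authors with Agilent Feature Extraction 10.7.1.1, per the file headers, and is background-subtracted and detrended within each array but not normalized between arrays. The deposited median spot and background intensity served for an alternative, and the other deposited columns, flags for outlying, saturated and well above background spots, were used per the file headers. The design build is mm9. Accessions were named through a RefSeq table of GRCm38.p6 (27508 of 39429 probes).

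From log2 of the processed intensity the array's 75th percentile over 43020 non-control spots was subtracted, and the spots of each probe that were not outliers were averaged. Probes well above background on at least 2 arrays were kept, and the brightest stood for a gene (12542 genes). Groups, taken from the titles, were compared two-sided with limma 3.58.1 in R 4.3.3 (4.69 prior and 2 residual degrees of freedom), adjusted by Benjamini-Hochberg over every gene tested, at a threshold of 0.05. An exact permutation test of 2 against 2 arrays cannot go below 0.333. The steps were tested on simulated data. The number of arrays limits the precision.

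The members and the lists were chosen with earlier results of these data known. Named were all members, Myc and, from each pathway list, the 3 highest and 3 lowest differences. Cytosolic and mitochondrial ribosomal protein genes, taken by symbol, and snoRNA hosts were added after values were seen. Alternatives were normexp background correction (offset 50), quantile and median scaling, no filter on dim probes or one on all 4 arrays, averaging the probes per gene, limma's trend or robust option, a block for the replicate number, and leaving out each array. Figures were drawn with matplotlib 3.10.9.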

Additional observations from a re-analysis of the deposited data

How the results depend on the processing

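No member was called in any of 13 alternatives, and 20 of 37 members kept their sign in all of them. Of these alternatives, limma's trend and robust options and the replicate block cannot change a difference or its sign. The count of all genes called, 0 in the main setting, was 128 with median scaling (95 higher, 33 lower), 295 with the replicate block and 0 to 171 with 1 array left out. Median scaling moved the median of all genes from -0.06 to 0.29, the members' median to 0.71 and that of the other ribosome biogenesis genes from 0.16 to 0.51. It moves the difference of every gene by the same amount, so the gap of 0.42 between members and all genes could not change. With 1 array left out the members' median ranged from 0.13 to 0.59 and the count with groups apart upward from 16 to 28, the latter without doxycycline array 2, where 27.3% of all genes stood apart upward, and 24 without control array 2, where 41.4% did. Myc passed with median scaling (3.76) and with the replicate block (3.41). With that block the spread of each gene is taken wholly from all genes. Without doxycycline array 2 the difference of Myc was 4.54. There the lone treated array is assumed to vary like the controls and the spread comes almost wholly from all genes. The replicate numbers do not pair the samples by any label: deviations of same-numbered arrays correlated at -0.085 across genes, and the block changed no member's call.

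Signs turned as follows. Median scaling moves the difference of every gene by the same amount, and for the other settings the cause was not tested. Under normexp correction Bop1 became 0.05, Rrp1b -0.03, Polr1b -0.20, Nme1 0.11, Utp14a -0.08, Nol9 -0.06 and Taf1c -0.03. Under quantile normalization Nop10 became -0.04, Wdr12 0.04 and Polr1c -0.02. Under median scaling Utp20 became 0.02, Bop1 0.30, Wdr12 0.21, Nme1 0.27, Bud23 0.08, Emg1 0.13, Noc3l 0.05, Nol12 0.05, Tgs1 0.06, Snu13 0.07 and Oaz2 0.02. With the mean of probes Pes1 became 0.11 and Oaz2 0.35.

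Leaving out 1 array gave differences of -0.35 to 0.70 for Fbl, -0.31 to 0.59 for Nop56, -0.12 to 0.59 for Gar1, -0.34 to 0.38 for Nop10, -0.28 to 0.18 for Bop1, -0.54 to 0.27 for Wdr12, -0.20 to 1.1 for Ppan, -0.22 to 1.41 for Polr1a, -0.01 to 0.73 for Polr1b, -1.09 to 0.26 for Polr1e, -0.13 to 0.63 for Rrn3, -0.23 to 0.69 for Srm and -0.58 to 0.42 for Nme1. Among the other genes it gave -1.47 to 0.04 for Nop9, -0.47 to 0.04 for Emg1, -1.06 to 0.47 for Noc3l, -0.55 to 0.01 for Snu13, -0.11 to 0.20 for Naf1, -0.83 to 0.11 for Dhodh and -0.09 to 1.46 for Sat1. Rrp12 and Polr1b were well above background on 3 arrays and not on control array 1, which limits their precision.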
